A study of Mus musculus with 15 samples.

Results

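The transcription factor genes Zeb1, Zeb2, Snai1, Snai2, Twist1, Twist2 and Prrx1 were followed across 15 mouse mammary tumour samples of 4 models. They were taken as the symbols of the deposited expression table that equal these names, and all 7 were found among its 17271 genes. Epithelial-mesenchymal transition (EMT) is the passage of an epithelial cell, held to its neighbours by adherens and tight junctions, to a motile mesenchymal state. The Zeb and Snai proteins are zinc finger repressors that bind E-boxes in the promoters of junction genes such as Cdh1, which encodes E-cadherin. The Twist proteins are basic helix-loop-helix factors that act as dimers with E proteins, and Prrx1 is a homeobox factor of embryonic mesenchyme that can drive EMT in carcinoma cells.

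By its title the series is about combining chemotherapy with loss of macrophages against triple negative breast tumours. All samples carried the same labelled genotype (p53-NULL), strain (BALB/c) and tissue (mouse mammary tumour), so the lack of p53 was shared by all groups and no tumour with p53 was among them. The model 2208L had 8 samples, 2151R had 4, 2225L had 2 and T11 had 1, and the series text spells 2151R and 2225L with a digit fewer. The titles marked 4 samples of 2208L PBS, 3 samples 3day nt and 1 ROSEN, 2 samples of 2151R NT, and 1 sample of 2225L ROSEN. The other 2 samples of 2151R bear codes of their own in place of NT, 53ca in one of them, and the other sample of 2225L is titled T-Vivo, so members of a group may differ in ways the labels do not explain. No age, dose or agent was given, what nt, NT, ROSEN, 53ca and the other marks in the titles mean is not stated, and nothing says whether samples of a model came from separate animals, so p-values measure the spread between these samples only.

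Each value is the log2 expression of a gene relative to an unstated reference level of that same gene. Differences between samples can therefore be read for each gene, while levels of different genes cannot be ranked, and no gene can be called absent. Sequencing depth is unknown, as no counts are in the deposited table. In such bulk samples fewer cells of a type and less RNA per cell cannot be told apart. The titles number the libraries of 2151R and of the PBS and 3day nt samples in blocks that do not overlap, so these groups and their library numbers cannot be told apart.

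On GRCm38, the build called mm10, the GENCODE M21 annotation places Zeb1 at chr18:5591860-5775467 on the plus strand and Zeb2 at chr2:44983632-45117395 on the minus strand. Snai1 lies at chr2:167538195-167542814 and Snai2 at chr16:14705852-14709385, both on the plus strand. Twist1 lies at chr12:33957671-33959829 (plus), Twist2 at chr1:91801461-91848028 (plus) and Prrx1 at chr1:163245119-163313710 (minus). Whether reads were counted by strand is not stated. Gm10125 overlaps the span of Zeb1, and Zeb2os that of Zeb2, on the opposite strand, and both are also in the table. Where the transcripts of such a pair share bases, their reads may not be told apart. Whether their exons overlap was not examined.

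The 7 genes did not rank the models in 1 common order. Zeb1, Zeb2 and Prrx1 were high in 2151R and T11 and low in 2208L and 2225L. Snai2 was high in 2225L and T11 and low in 2151R and 2208L. Snai1 stood out by its low values in 2225L, Twist1 was highest in 2208L, and Twist2 did not separate the models.

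**Figure D1:**
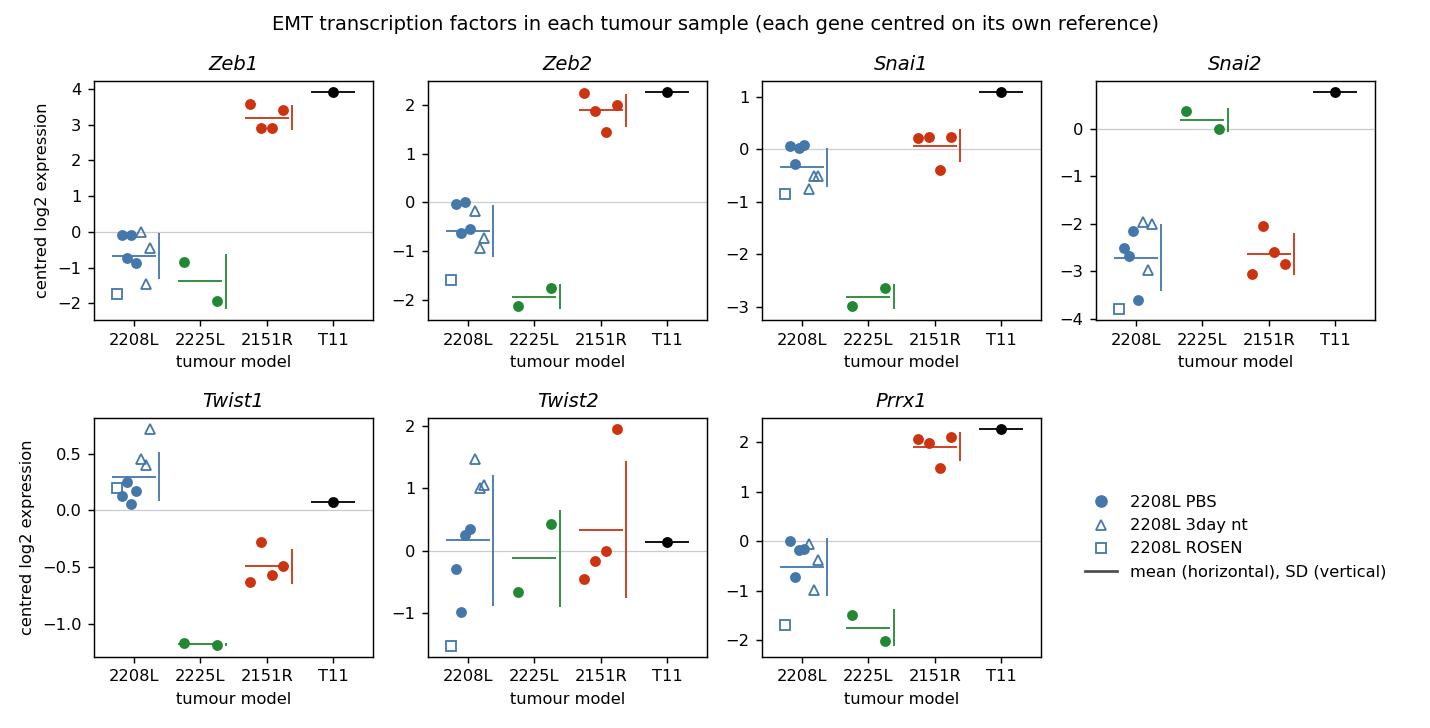
Centred log2 expression of the 7 genes (y axis, each gene on its own scale) in each of the 15 samples, grouped by tumour model (x axis). Points are samples, horizontal lines group means and vertical lines 1 SD; Zeb1, Zeb2 and Prrx1 lie at or above 1.44 in all samples of 2151R and T11 and at or below 0 in all samples of 2208L and 2225L.

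Zeb1, a repressor of E-cadherin and of the miR-200 genes, showed the widest separation. Its log2 values in 2151R replicates 1 to 4 were 3.57, 2.91, 2.92 and 3.41, and T11 lay at 3.92. In 2208L they ran from -1.73 through a median of -0.59 to 0.00, and the samples of 2225L lay at -0.84 and -1.94. All 5 samples of 2151R and T11 thus lay above all 10 samples of 2208L and 2225L, while 2208L and 2225L overlapped. The mean was 3.20 ± 0.34 (SD, n = 4) in 2151R. It was -0.68 ± 0.65 (SD, n = 8) in 2208L, so that 2151R was higher by 3.88 (SE 0.35, 95% interval 3.13 to 4.63, limma adjusted p 8.86e-07), or 14.7-fold. Between 2225L and 2208L the difference was -0.71 (95% interval -1.67 to 0.25), which did not pass the threshold (limma adjusted p 0.247).

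Zeb2, the second member of the family, followed a like order. The log2 values in 2151R were 2.25, 1.87, 1.44 and 2.0, T11 lay at 2.27, and 2208L ran from -1.59 through a median of -0.59 to 0.00. The samples of 2225L lay at -2.12 and -1.76, below every sample of 2208L. Zeb2 was higher in 2151R than in 2208L by 2.47 (SE 0.28, 95% interval 1.87 to 3.07, limma adjusted p 7.57e-06), or 5.54-fold, and its difference between 2225L and 2208L was -1.36 (SE 0.36, limma adjusted p 0.0104). The latter call was lost without replicate 1 of 2225L (difference -1.18, limma adjusted p 0.086), where the lone sample left is assumed to vary like the other groups, and with sample weights (-1.56). Zeb2os, an antisense transcript that overlaps Zeb2, differed by 0.65 between 2151R and 2208L and by -0.44 between 2225L and 2208L, and neither difference was called.

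Prrx1 had values of 2.06, 1.98, 1.47 and 2.11 in 2151R and 2.27 in T11. In 2208L it ran from -1.69 through a median of -0.28 to 0.00, and in 2225L it lay at -1.49 and -2.01. The difference between 2151R and 2208L was 2.42 (SE 0.29, 95% interval 1.79 to 3.06, limma adjusted p 1.63e-05), or 5.36-fold, with no overlap. In 2225L Prrx1 was lower than in 2208L, with a difference of -1.23 (SE 0.38, limma adjusted p 0.0246), although the ROSEN sample of 2208L at -1.69 lay between the 2 samples of 2225L. This call was lost without replicate 2 of 2225L (difference -0.97, limma adjusted p 0.197), with the library prefix as a covariate (-0.84), after quantile normalization (-0.82), with sample weights (-1.33) and without the 3 samples high in skeletal muscle genes (-1.13).

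Snai1, the repressor that acts early in many EMT programmes, marked 2225L by its low values. They were -2.98 and -2.64 there, against a range from -0.85 through a median of -0.39 to 0.08 in 2208L and 0.22, 0.23, -0.40 and 0.23 in 2151R. T11 held the highest value, 1.10. Both samples of 2225L lay below all others, and Snai1 differed there from 2208L by -2.47 (SE 0.28, 95% interval -3.06 to -1.87, limma adjusted p 2.52e-05), a level 5.53-fold higher in 2208L. Between 2151R and 2208L the ranges overlapped, and the difference of 0.41 (95% interval -0.05 to 0.88) was not called (limma adjusted p 0.126). Against the 3day nt samples alone it was 0.66 and was called (limma adjusted p 0.0261).

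Snai2, also called Slug, is known in the mammary gland for its expression in basal cells. It went the other way from Snai1 in 2225L. The values were 0.36 and 0.00 in 2225L and 0.77 in T11, while 2151R lay at -3.06, -2.04, -2.60 and -2.84 and 2208L ran from -3.80 through a median of -2.60 to -1.97. The groups of 2225L and 2208L did not overlap, and Snai2 was higher in 2225L by 2.90 (SE 0.46, 95% interval 1.91 to 3.88, limma adjusted p 0.000386), or 7.45-fold. For 2151R against 2208L the difference was 0.08 (95% interval -0.68 to 0.85, limma adjusted p 0.867). After quantile normalization of the samples it was 0.93 and was called (limma adjusted p 0.00916), and in 7 other settings it was below 0, so no direction is given for Snai2 between these models.

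Twist1 varied within a narrower range. It lay at -0.63, -0.28, -0.57 and -0.49 in 2151R, at 0.07 in T11, at -1.17 and -1.19 in 2225L, and from 0.06 through a median of 0.23 to 0.72 in 2208L. The 3 models with replicates did not overlap, in the order 2208L, 2151R, 2225L. Against 2208L, Twist1 was lower in 2151R (difference -0.79, SE 0.14, limma adjusted p 0.000347) and in 2225L (difference -1.48, SE 0.18, limma adjusted p 4.28e-05). T11 lay within the range of 2208L.

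Twist2, the close relative of Twist1, had the widest spread within models. The 4 samples of 2151R lay at -0.45, -0.16, 0.00 and 1.96, those of 2225L at -0.67 and 0.43, and T11 at 0.14. In 2208L Twist2 ran from -1.53 through a median of 0.29 to 1.47. All models overlapped, with an SD of 1.1 in 2151R and 1.0 in 2208L, and the difference of 0.17 between them had a 95% interval from -1.10 to 1.45 (limma adjusted p 0.824). Against 2208L, 2225L differed by -0.28 (95% interval -1.93 to 1.36, limma adjusted p 0.81).

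Of the 7 genes, 3 were called higher in 2151R than in 2208L (Zeb1, Zeb2, Prrx1) and 1 lower (Twist1), where 26.1% of all 17271 genes were called higher and 22.7% lower. Their median difference was 0.41 and that of all genes 0.10. In 2225L against 2208L 1 was called higher (Snai2) and 4 lower (Snai1, Twist1, Zeb2, Prrx1), against 15.6% and 17.3% of all genes, with a median difference of -1.23 beside -0.04 for all genes. These comparisons share the samples of 2208L, and with 7 genes the counts describe these genes and are no test of the group.

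Between 2225L and 2151R 1 gene was called higher in 2225L and 5 lower, where 22.8% and 25.8% of all genes were called. Zeb1 differed by -4.59 (SE 0.49, limma adjusted p 6.35e-06), which makes it 24-fold higher in 2151R. Zeb2 was 14.2-fold higher in 2151R (difference -3.83, SE 0.39), Prrx1 12.6-fold (difference -3.65, SE 0.42) and Snai1 7.37-fold (difference -2.88, SE 0.30). Snai2 was 7.04-fold higher in 2225L (difference 2.82, SE 0.50, limma adjusted p 0.00049). Twist1 differed by -0.69 (SE 0.19, limma adjusted p 0.0101), a call lost after quantile normalization (-0.34), with sample weights (-0.67) and when only samples titled NT, nt or PBS were used (-0.65). Twist2 differed by -0.46 and was not called.

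**Figure D2:**
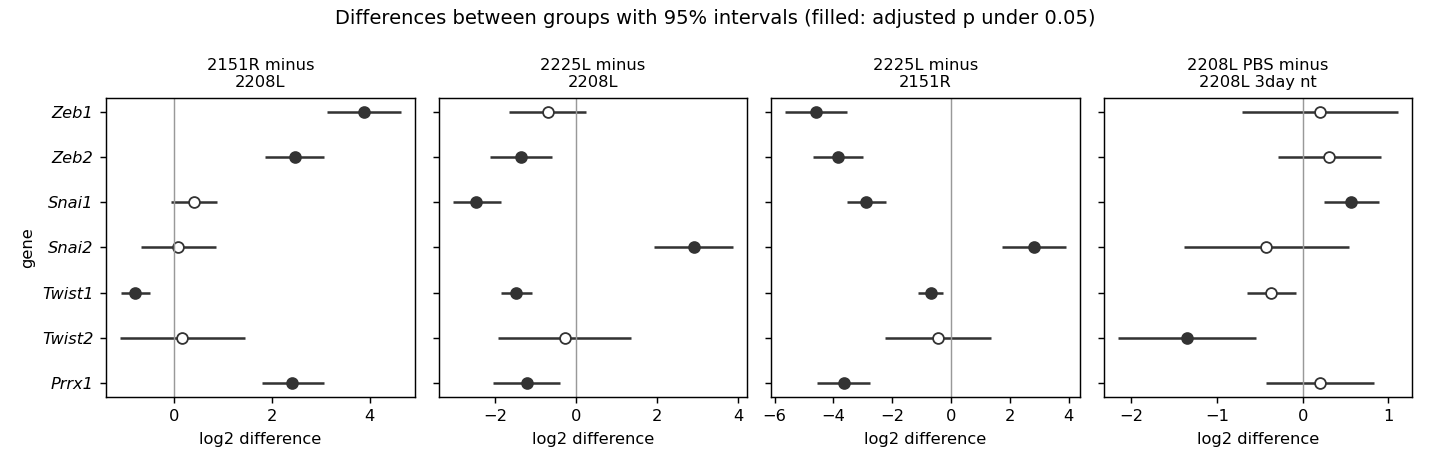
Log2 difference (x axis) of each of the 7 genes (y axis) in 4 comparisons, from limma, with 95% intervals as lines and filled points where the adjusted p is under 0.05. Between 2151R and 2208L the point farthest from 0 is Zeb1, at 3.88, and Snai2 is the only gene of the 7 to the right of 0 in both comparisons of 2225L.

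T11 is a single sample, so its values carry no test. Against the mean of 2208L, 5 of the 7 genes were higher by at least 1 log2 unit, where 22.9% of all genes were that much higher and 15.6% that much lower. These were Zeb1 (by 4.60), Snai2 (3.48), Zeb2 (2.85), Prrx1 (2.79) and Snai1 (1.45), and each lay above the highest sample of 2208L. Against the mean of 2151R, 2 genes were higher by at least 1 unit, Snai2 by 3.40 and Snai1 by 1.03, beside 15% of all genes higher and 10.5% lower. T11 was the one sample in which Zeb1, Zeb2, Prrx1, Snai1 and Snai2 all lay above 0.

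The level of Zeb2 and that of Prrx1 moved most closely together. Over the 15 samples Pearson's r between them was 0.987, the highest that either had with any of the other 17270 genes. Zeb1 had an r of 0.973 with Prrx1 and of 0.964 with Zeb2. These values mostly restate the model differences, as samples of a model share its level, so the same was computed within 2208L alone. There (n = 8) r was 0.929 for Zeb1 and Zeb2, 0.901 for Zeb1 and Prrx1 and 0.932 for Zeb2 and Prrx1, with medians over all genes from 0.053 to 0.152. Without the 2 samples farthest from the median (n = 6), r was 0.82, 0.607 and 0.858, so the relation of Zeb1 and Prrx1 leaned on them.

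Outside the 7, genes without a predicted-gene symbol or a repeated value were considered, and those most like Zeb1 over the 15 samples were Sh3glb1 (r 0.99), Clcn7 (0.99) and Cntln (0.989). For Snai1 they were Lrrk1 (0.978), Zfp36l2 (0.977) and Rab6b (0.97), and for Snai2 Lrig3 (0.968), Gpr173 (0.96) and Alcam (0.936). For Twist1 they were Dnajc27 (0.949), Siah1a (0.948) and Smim3 (0.944), while no gene considered came closer to Twist2 than Agtr2 (0.795). Prrx1 was followed, after Zeb2, by Nrp2 (0.985) and by Itga5 (0.983), the fibronectin receptor subunit. With deviations from model means (14 samples) the genes most like each changed, to Kalrn (0.966) for Zeb1, Lrp1 (0.949) for Zeb2, Usp25 (0.922) for Snai1, Ppic (0.96) for Snai2, Tmem251 (0.878) for Twist1, Ctsk (0.868) for Twist2 and Hoxb3 (0.955) for Prrx1.

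Genes that the Zeb and Snai proteins are known to repress were compared next, from a list of 20 epithelial genes of cell junctions, polarity and splicing. All 20 were called lower in 2151R than in 2208L, with a median difference of -6.40, where 22.7% of all genes were called lower. The list was composed as known targets with earlier results of these data known, so its direction is no independent evidence. Cldn7, a tight junction claudin, lay from -7.72 to -6.16 in 2151R, at -9.88 in T11, at 0.86 and 1.2 in 2225L and from 0.53 to 1.86 in 2208L. It differed most, by -8.34 (SE 0.31, limma adjusted p 1.49e-10). Cdh1 lay from -6.13 to -5.34 in 2151R and from 0.01 to 0.56 in 2208L (difference -5.84), and at -7.67 in T11. In T11 all 20 genes lay at least 1 unit below the mean of 2208L (median -8.17), and 15 of them at least 1 unit below that of 2151R. Among all genes 15.6% lay that much below 2208L and 10.5% that much below 2151R.

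In 2225L the same 20 genes stayed near 2208L, with a median difference of -0.21. Snai2 was 7.45-fold higher in 2225L, while Snai1 (difference -2.47) and Zeb2 (-1.36) were lower. The part of any of these factors in the levels of the 20 genes was not tested. Cdh1 lay at 0.64 and 0.03 in 2225L, and 16 of the 20 were not called, where 15.6% of all genes were called higher and 17.3% lower. Tjp3, a tight junction scaffold, was higher by 2.07 (SE 0.25) and Crb3, a polarity protein, by 1.07. Muc1, a membrane mucin, was lower, with a difference of -3.09 (SE 0.35), and so was Llgl2, a polarity protein of the basolateral side, with one of -1.25. Against 2151R all 20 were called higher in 2225L, beside 22.8% of all genes, with a median difference of 6.12.

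**Figure D3:**
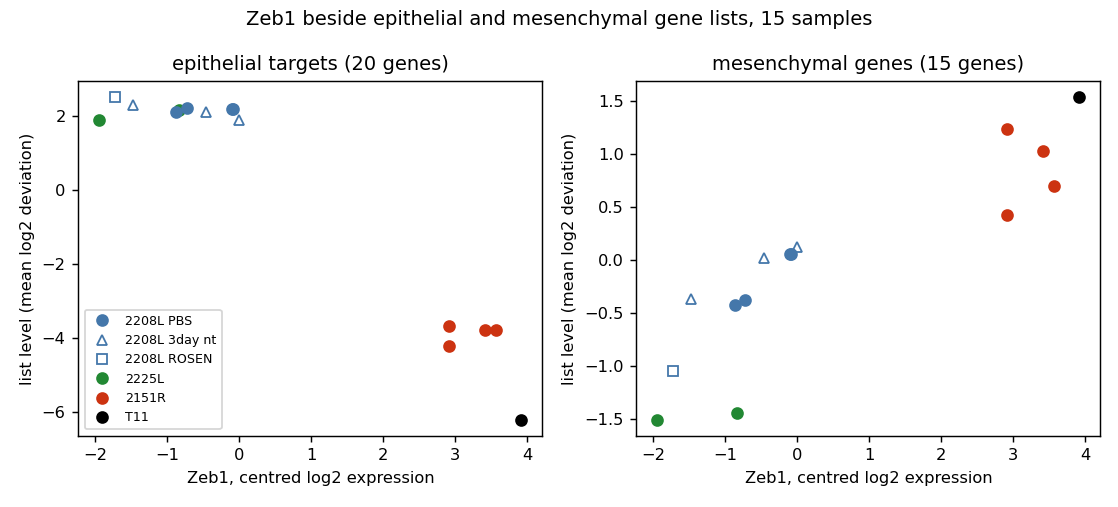
Level of the 20 epithelial genes (left) and of 15 mesenchymal genes (right) against the centred log2 expression of Zeb1, 1 point per sample. A list level is the mean over its genes of the log2 value minus the gene's mean over 15 samples; the epithelial level lies from 1.89 to 2.52 in 2208L and from -4.21 to -3.68 in 2151R, with no sample between.

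The promoters of these genes were searched for the E-box CAGGTG, whose reverse complement is CACCTG, on both strands, since it is the core that Zeb and Snai zinc fingers recognise. RefSeq windows on GRCm38.p6 from 250 bases before to 50 after a start were used. Of 12 list genes with a window 11 held the motif (91.7%) and 8 held it at least 2 times, while it was in 22.6% of all 27025 genes with a window and in 20.2% of all 32851 windows. Ovol2, itself an epithelial repressor of EMT factors, was the list gene without it. Among 10 genes of the mesenchymal list 2 held it. Of the 5 factor genes with a window only Snai1 held it, with its first base at -126, where the start site is 1 and the base before it -1. The list was composed of genes known as targets of proteins that bind this motif, so its share is no independent evidence. A match says only that these letters are present, and no binding was measured.

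Over the whole table, 29.4% of 2921 genes with a window that were called lower in 2151R than in 2208L held the motif. The share was 18.1% of 3180 genes called higher and 19.5% of 5999 called neither way. These shares are a description without a test, and windows also differ in base composition. Of the list genes with windows, Crb3 held the most matches, 4, which begin at -118, -63, -7 and 26. The windows of Crb3, Cldn7, Epcam, which encodes an epithelial adhesion molecule, and Rab25, a trafficking GTPase, are shown because the motif recurs in each and all 4 genes were lower in 2151R than in 2208L, with differences from -8.34 to -6.29. The E-boxes are in capitals, and each window reads 5′ to 3′ along its gene.

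The windows are Crb3 at chr17:57061951-57062250 (plus strand), Cldn7 at chr11:69965171-69965470 (plus), Epcam at chr17:87635729-87636028 (plus) and Rab25 at chr3:88548230-88548529 (minus).
Crb3: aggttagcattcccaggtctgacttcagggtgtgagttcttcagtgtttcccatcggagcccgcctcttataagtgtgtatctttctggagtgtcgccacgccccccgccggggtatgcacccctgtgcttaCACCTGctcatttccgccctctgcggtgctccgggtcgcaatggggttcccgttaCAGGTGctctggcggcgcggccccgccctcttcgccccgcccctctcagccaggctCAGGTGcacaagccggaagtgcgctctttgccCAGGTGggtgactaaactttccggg
Cldn7: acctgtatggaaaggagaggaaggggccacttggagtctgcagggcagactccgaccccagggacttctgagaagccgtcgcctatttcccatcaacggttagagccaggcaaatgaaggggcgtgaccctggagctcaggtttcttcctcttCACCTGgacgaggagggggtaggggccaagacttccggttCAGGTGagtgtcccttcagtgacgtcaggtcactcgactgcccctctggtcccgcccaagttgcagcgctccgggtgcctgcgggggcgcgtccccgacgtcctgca
Epcam: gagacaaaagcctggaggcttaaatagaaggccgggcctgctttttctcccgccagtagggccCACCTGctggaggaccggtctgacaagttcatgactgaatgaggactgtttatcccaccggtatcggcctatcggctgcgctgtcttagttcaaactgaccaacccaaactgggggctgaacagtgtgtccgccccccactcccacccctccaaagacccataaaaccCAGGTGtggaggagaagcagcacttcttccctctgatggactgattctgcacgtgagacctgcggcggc
Rab25: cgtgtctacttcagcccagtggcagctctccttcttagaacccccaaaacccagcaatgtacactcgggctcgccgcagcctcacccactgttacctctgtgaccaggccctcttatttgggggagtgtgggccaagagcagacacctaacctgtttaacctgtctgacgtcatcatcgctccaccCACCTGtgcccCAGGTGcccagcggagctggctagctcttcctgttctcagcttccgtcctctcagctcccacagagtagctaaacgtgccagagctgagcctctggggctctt

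Rab25 lay from -6.20 to -5.16 in 2151R, at -7.60 in T11, at 0.49 and 1.06 in 2225L and from 0.29 to 1.49 in 2208L. Epcam lay from -6.30 to -5.08 in 2151R, at -9.83 in T11, at 0.00 and 1.23 in 2225L and from 0.50 to 1.37 in 2208L. Crb3 lay from -6.47 to -5.27 in 2151R, at -7.13 in T11, at 1.31 and 1.71 in 2225L and from 0.00 to 0.96 in 2208L. In each of them 2151R and T11 lay below 2208L and 2225L without overlap. The genes were chosen as known targets that were lower in 2151R than in 2208L, so this order is no independent evidence. Zeb1, Zeb2 and Prrx1 all split the models in this way, and the part of any of them was not tested.

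The miR-200 family and miR-205 bind the messenger RNAs of Zeb1 and Zeb2 and lower them, and their own genes are repressed by Zeb proteins. Of these genes the table holds only Mir205hg, the host transcript of miR-205. It lay at 4.80 and 5.20 in 2225L, from -1.11 to 2.59 in 2208L, from -0.64 to 0.39 in 2151R and at 0.00 in T11. It was higher in 2225L than in 2208L by 4.46 (SE 0.78, limma adjusted p 0.000828) and than in 2151R by 4.98. For 2151R against 2208L it differed by -0.52 and was not called. At Mir205hg 4 of the 15 samples shared exactly the same value, 0.00, which is not read as a measured level. The mature sequences from RefSeq are shown with the seed, bases 2 to 8, in capitals, to set the 2 seeds that pair with Zeb messages side by side; the mature miRNAs themselves were not measured.
mmu-miR-205-5p: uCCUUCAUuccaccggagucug
mmu-miR-200c-3p: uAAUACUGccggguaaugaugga

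Genes that mark a mesenchymal state had smaller differences than the epithelial ones, with a median of 0.80. Of 16 listed the table holds 15, of which 7 were called higher in 2151R against 2208L and 0 lower. Of all genes 26.1% were called higher and 22.7% lower. S100a4, a calcium-binding protein of motile cells, was higher by 3.72 (SE 0.79) and Vim, the intermediate filament vimentin, by 3.09. S100a4 lay from 0.41 to 1.14 in 2151R, while 2208L was split, from -4.72 to -3.50 in PBS and from -1.54 to 0.00 in 3day nt samples. Vim lay from 2.23 to 2.32 in 2151R, at 2.28 in T11, at -0.14 and -0.56 in 2225L and from -1.39 to -0.48 in 2208L. In 2225L 7 of the 15 were lower than in 2208L and 0 higher, where 17.3% and 15.6% of all genes were called. The largest difference was that of Cdh2, or N-cadherin, at -3.79 (SE 0.36). In T11 11 of 15 lay at least 1 unit above the mean of 2208L, beside 22.9% of all genes.

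Other transcription factors linked to EMT did not all follow Zeb1. Of the 13 present, 5 were called higher in 2151R against 2208L and 4 lower, not far from the 26.1% and 22.7% of all genes. Fosl1, an AP-1 subunit, lay from 5.32 to 5.73 in 2151R, at 3.58 in T11, at -2.83 and -7.15 in 2225L and from -3.06 to 0.00 in 2208L, a difference of 7.5 between 2151R and 2208L (SE 0.75, limma adjusted p 2.8e-06). Hmga2, a chromatin protein, differed by 3.36 and Prrx2, the paralogue of Prrx1, by 3.12. Snai3, the third Snai gene, went the other way, from -3.58 to -1.79 in 2151R against 1.47 to 4.11 in 2208L (difference -5.06), and Foxq1, a forkhead factor, differed by -5.13 (SE 0.44). In 2225L 5 of the 13 were lower than in 2208L and 0 higher, with Hmga2 at -3.78 (SE 0.73) differing most.

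Twist proteins dimerise with the E proteins encoded by Tcf3, Tcf4 and Tcf12, and the Id proteins take E proteins away from them. Of the 7 such genes present, 2 were called higher in 2151R against 2208L and 2 lower, not far from the 26.1% and 22.7% of all genes. Those higher were Tcf4, by 1.56 (SE 0.24), and Tcf12, by 0.68. Both genes called lower encode Id proteins, Id2 (difference -2.84, SE 0.23) and Id4 (-1.66). In 2225L only Id4 was called against 2208L, where 15.6% of all genes were called higher and 17.3% lower. Id4 was higher by 3.54 (SE 0.42), at 4.94 and 2.99 against -0.02 to 1.35. Thus Id4 differed in opposite directions in the 2 models in which Twist1 was lower.

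The corepressors that Zeb and Snai proteins recruit were called higher in 2151R about as often as genes at large, while 0 were called lower. Of 12, 3 were higher in 2151R and 0 lower against 2208L (median difference 0.08), led by Ajuba, a LIM protein that binds Snai proteins, at 0.85 (SE 0.15), where 26.1% and 22.7% of all genes were called. In 2225L 3 were higher, with Ajuba at 1.42 (SE 0.20), and 1 lower, the Polycomb subunit gene Suz12 at -0.98 (SE 0.19), where 15.6% and 17.3% of all genes were called. Neither Ctbp1 (-0.19 and 0.37) nor Ctbp2 (0.11 and 0.13), the classical partners of Zeb1, was called in 2151R or 2225L.

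TGF-beta signalling through Smad proteins induces the EMT factors. Of 9 genes 3 were called higher in 2151R against 2208L and 2 lower, with Tgfbr2, the type II receptor, at 0.60 (SE 0.23, limma adjusted p 0.048) and Tgfb2, a ligand, at -1.86 (SE 0.20), and these counts lie near the 26.1% and 22.7% of all genes. In 2225L 0 were higher and 5 lower, where 15.6% and 17.3% of all genes were called. The 5 were Tgfbr2 (-1.41), Smad7 (-1.38), Tgfbr1 (-1.25), Smad2 (-0.76) and Smad4 (-0.73). A further list holds 8 genes for kinases and ubiquitin ligase subunits that set the turnover of Snai and Twist proteins. Of these only Lats2 (1.04) was called higher and only Fbxw7 (-0.99) lower in 2151R than in 2208L, below the shares of all genes. In 2225L 2 were higher, Btrc (0.94) and Fbxl14 (0.78), beside 15.6% of all genes, and 5 were lower, beside 17.3%. The lower genes included Fbxo11, which marks Snai proteins for degradation, at -1.94 (SE 0.36). Protein levels were not measured.

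Stromal and immune cells also express several of the 7 genes, so marker lists of other cell types are given beside them. Between 2151R and 2208L 8 of 12 macrophage markers were higher and 1, Cd14, was lower, and the list level ran from 0.45 to 0.90 in 2151R and from -0.46 to 0.31 in 2208L. Of 8 endothelial markers 7 were higher (level 0.45 to 0.99 against -1.23 to 0.25), and of 12 fibroblast markers 3 were higher, led by Dcn at 3.56 (level 0.19 to 1.58 against -1.56 to 1.17). Median differences of these lists were 1.09, 1.24 and 0.60. Zeb1, Zeb2 and Prrx1 differed by 3.88, 2.47 and 2.42, and a list median sets no bound on what a cell type adds to 1 gene. In 2225L 8 of 12 macrophage markers were lower than in 2208L (level -2.12 and -0.83), and 0 of 12 fibroblast and 0 of 8 endothelial markers were called. In that comparison, with 2 samples of 2225L, 15.6% of all genes were called higher and 17.3% lower. Against 2208L, 2151R also had 3 of 10 T and NK cell markers higher and 0 lower, 2 of 7 adipocyte markers higher and 0 lower, 1 of 8 pericyte and smooth muscle markers higher and 3 lower, and 1 of 13 skeletal muscle genes lower. The fibroblast, T and NK cell and adipocyte counts lie near the 26.1% of all genes called higher in 2151R, and 22.7% were called lower. Median differences of these last lists, in the order given, were 1.12, 3.99, -0.71 and -2.76. The adipocyte level ran from 0.91 to 3.75 in 2151R and from -3.85 to 1.57 in 2208L. With such spread, few calls do not show that these cell types were alike in the models. The part of other cells in the differences of the 7 genes was not tested.

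Within 2208L, where the model is constant, the level of the endothelial list went with Zeb1 (r 0.952, n = 8) and that of the fibroblast list with Snai2 (r 0.935, n = 8). These are the highest of 133 correlations of a gene with a list and were picked for that. The next were Zeb2 with the endothelial list (0.923) and Zeb1 with the mesenchymal list (0.912). Without the ROSEN sample, the lowest for Zeb1, Zeb2, Snai2, Prrx1 and the endothelial and fibroblast lists, the values of the picked pairs were 0.925 and 0.897 (n = 7). Against the list of 20 epithelial genes Zeb1 had an r of -0.80, and -0.622 without that sample. These are descriptions over few samples that share subsets, and are given without a p.

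Snai2 was accompanied in 2225L by basal epithelial genes. Of 8 basal markers 4 were higher in 2225L than in 2208L and 0 lower, where 15.6% and 17.3% of all genes were called. The 4 were the keratins Krt5 (by 9.81, SE 1.4), Krt14 (4.50) and Krt17 (2.68) and Trp63 (3.82), the basal factor p63. The list level was 2.76 and 2.82 in 2225L, from -0.94 to 0.62 in 2208L, from -0.69 to -0.08 in 2151R and -3.30 in T11. In T11, where Snai2 was 0.77, 6 of the 8 lay at least 1 unit below the mean of 2208L, among them Krt14 at -7.80 and Trp63 at -2.60. The other 2, Acta2 (1.32) and Cnn1 (0.09), which are also smooth muscle genes, lay at least 1 unit above it. Among all genes 15.6% lay that much lower in T11 and 22.9% that much higher. At Krt5 2 samples of 2208L shared the lowest value, -4.59. In 2151R Krt5 was called higher than in 2208L (4.73) while Krt17 (-4.50), Krt14 (-2.08) and Trp63 (-1.47) were lower. Of 8 luminal markers 4 were lower in 2151R than in 2208L, led by Krt8 at -6.27, and 1, Krt19, was higher by 3.61. For all genes these shares were 22.7% lower and 26.1% higher. The luminal level in T11 was -5.30.

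**Figure D4:**
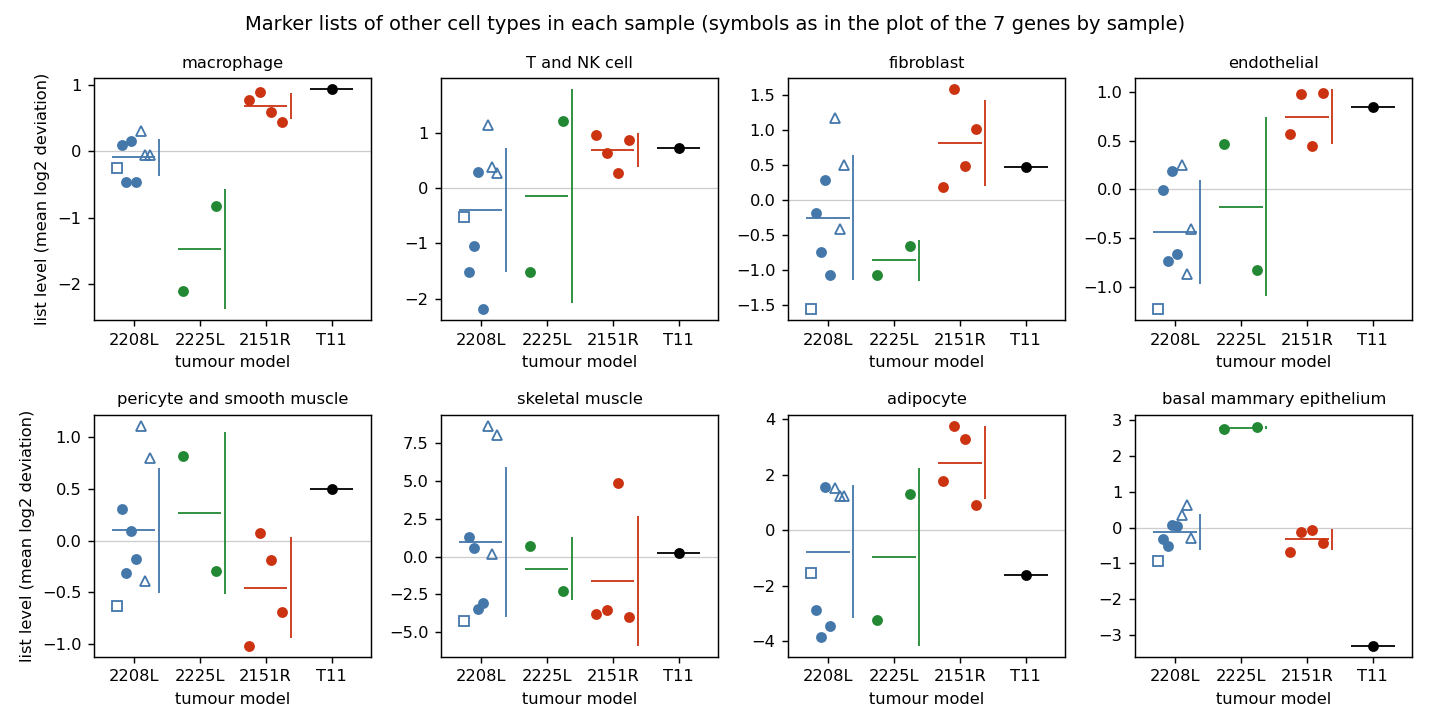
Level of 8 marker lists (y axis, mean log2 deviation of the list's genes from their means over 15 samples) in each sample by tumour model (x axis). Points are samples, horizontal lines means and vertical lines 1 SD; the macrophage level of 2151R (0.45 to 0.90) lies above that of 2208L (-0.46 to 0.31), and the basal level is highest in 2225L (2.76 and 2.82).

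Within 2208L the 4 samples titled PBS were compared with the 3 titled 3day nt. Of the 7 genes 1 was called higher in PBS (Snai1) and 1 lower (Twist2), beside 17.4% and 16.5% of all genes. Snai1 lay at 0.07, -0.27, 0.02 and 0.08 in PBS samples and at -0.75, -0.51 and -0.51 in 3day nt samples, a difference of 0.57 (SE 0.13, limma adjusted p 0.0205). Twist2 lay at -0.30, -0.99, 0.25 and 0.34 in PBS samples and at 1.47, 1.01 and 1.06 in 3day nt samples, a difference of -1.35 (SE 0.34, limma adjusted p 0.0243). Neither pair of groups overlapped. Twist1 also did not overlap, at 0.13, 0.25, 0.06 and 0.17 against 0.45, 0.40 and 0.72, but its difference of -0.37 was not called (limma adjusted p 0.0531).

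The differences of Zeb1 (0.20), Zeb2 (0.31), Prrx1 (0.20) and Snai2 (-0.43) between the subsets were not called, and their 95% intervals spanned 0. Skeletal muscle genes were high in replicates 6 and 8, both 3day nt, where the list reached 8.64 and 8.02 against -3.50 to 1.30 in PBS samples. Without these 2 samples, which leaves 1 sample of 3day nt that is assumed to vary like the others, Snai1 (0.49) and Twist2 (-1.18) kept their direction and neither was called. Both calls were also lost without replicate 2, 6 or 8 of 2208L. Of 10 T and NK cell markers 3 were lower in PBS (level -2.19 to 0.29 against 0.27 to 1.14), as was 1 of 4 B cell markers, Cd79a (level -0.69 to -0.50 against 0.10 to 0.61). Among all genes 16.5% were called lower in PBS and 17.4% higher. The adipocyte level ran from -3.85 to 1.57 in PBS and from 1.22 to 1.52 in 3day nt samples, with 0 of 7 called. The part of muscle or other cells in these differences was not tested.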

How the data were processed

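The labels' protocols name a Qiagen column kit for the RNA and an Illumina kit that captures poly(A) tails for the libraries of all 15 samples. Per the submitters' processing notes STAR, Salmon and mm10 were used, with no versions given. The deposited table, made by the authors, gives log2 values from -14.55 to 13.11 for 17271 symbols. That each gene is centred on a median is taken from the authors' name for the table. Over these samples only 1124 genes had a median of exactly 0. What set of samples the centring used is not stated. The offset before the logarithm and the scaling between samples are not given in the sources used here, and the files hold no counts, so precision rests on the spread between samples. In 727 genes, none of the 7 among them, at least 2 samples shared 1 value, and these were used as deposited.

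The model in a title set the group of a sample. On the deposited values limma 3.58.1 (R 4.3.3) was run, with 1 fit of 15 samples for the models and a fit of 7 samples for PBS against 3day nt. Genes with a Benjamini-Hochberg adjusted p under 0.05 over all 17271 genes are called, and the fit was tested on simulated data. Correlations, ranges and list levels were computed in Python 3.11.15. The 7 genes, the lists and the tests were chosen with earlier results of these data known. Named genes are those 7, the called genes of each list that lay highest and lowest in 2151R and in 2225L against 2208L, members of lists of up to 8 genes, and the 3 genes most alike to each of the 7. Other list genes, among them Cdh1, Vim, Snai3, Prrx2 and those with printed promoters, were chosen after their values were seen. Alternatives were other normalizations, filters, variance models and sample weights, the library prefix as a covariate, and subsets of samples.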

Additional observations from a re-analysis of the deposited data

Results flagged for a closer look

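Of 54 groups of 4 to 8 samples, 3 held a sample far from the others relative to the range of its group. The groups were the 7 genes and a part of the lists, each in 2151R, in 2208L and in the PBS samples of 2208L. The PBS samples are also in the groups of 2208L, so the groups are not separate. Chance alone marks about 1 in 20 groups, or 2.7 here. Snai1 was -0.40 in replicate 3 of 2151R, while the other 3 samples lay at 0.22 to 0.23. The skeletal muscle list was at 4.85 in the same sample, with the others from -3.97 to -3.51. Whether muscle RNA bears on the Snai1 value was not tested. The mesenchymal list was at -1.05 in replicate 1 of 2208L, the ROSEN sample, with the others from -0.43 to 0.12, and that sample was also the lowest of its model for Zeb1, Zeb2, Snai1, Snai2, Twist2 and Prrx1.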

How the results depend on the processing

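Of 539 values of the 7 genes under alternatives, 498 kept their direction and their side of the threshold, 18 lost the call, 4 gained it and 19 changed sign, all of the latter in differences that were not called. All differences of Zeb1, Zeb2, Prrx1 and Twist1 between 2151R and 2208L, and of Snai1, Snai2 and Twist1 between 2225L and 2208L, kept direction and call. The cause of the changes below was not tested.

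For 2151R against 2208L, Snai2 was 0.93 after quantile normalization, -0.21 with sample weights, -0.16 when only samples titled NT, nt or PBS were used, -0.04 with the library prefix and -0.32 against 3day nt samples, and from -0.12 to 0.22 with single samples left out. Snai1 was 0.66 and Twist2 -0.84 against 3day nt samples, and Twist2 ran from -0.37 to 0.44 with single samples left out. Genes higher in 2151R numbered 2658 when only samples titled NT, nt or PBS were used.

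For 2225L against 2208L, sample weights gave -1.56 for Zeb2 and -1.33 for Prrx1, neither called, and 958 genes higher and 1200 lower. Prrx1 was -0.82 after quantile normalization, -1.13 without the 3 samples high in muscle genes and -0.84 with the library prefix, and none was called. Twist2 was 0.09 without those 3 samples, 0.03 with the prefix and 0.06 against PBS samples. With single samples left out Zeb2 ran from -1.54 to -1.18, Prrx1 from -1.49 to -0.97 and Twist2 from -0.83 to 0.27.

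For 2225L against 2151R, Twist1 was not called at -0.34 (quantile normalization), -0.67 (sample weights) or -0.65 (samples titled NT, nt or PBS only), Twist2 ran from -1.01 to 0.10 with single samples left out, and sample weights gave 2529 genes higher and 2723 lower.

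For PBS against 3day nt, sample weights called Zeb2 (0.46) and Twist1 (-0.55) and gave 5938 genes higher and 5754 lower, while 1841 genes were lower among genes with an SD of at least 0.5. Without the samples high in muscle genes 76 genes were higher and 22 lower, Snai1 (0.49) and Twist2 (-1.18) were not called, and Snai2 was 0.24. With single samples left out the genes higher ran from 1362 to 3988 and those lower from 1017 to 3111, Snai1 from 0.49 to 0.65, Twist2 from -1.53 to -1.08, Zeb1 from -0.21 to 0.52 and Prrx1 from -0.05 to 0.41. No paired analysis was possible because no number in the titles links samples of different groups.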
